A study of Mus musculus with 9 samples.

Results

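The genes described here are the channel genes of the mouse hypothalamus, defined as all genes of the deposited table whose symbol begins with Kcn (potassium channels), Scn (sodium channels), Cacna, Cacnb or Cacng (calcium channels) or Hcn (hyperpolarization-activated channels). There were 98 such genes among 13588 entries, of which 62 were potassium, 11 sodium, 21 calcium and 4 HCN channel genes. Scnm1 has the Scn prefix but codes for an RNA splicing factor, so it was counted and not read as a channel. The annotation names 147 genes with these prefixes, and the other 49, among them Kcnj11 and Kcnj8, were not analysed here.

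RNA-seq was performed on laser-captured mediobasal hypothalamus of 9 male C57/BL6 mice, all of the floxed Snord116 line B6(Cg)-Snord116tm1Uta/J, with 1 library for each mouse. AAV-GFP had been injected in 3 control mice and AAV-Cre in 6 mice, and brains were frozen 10 weeks post injection. Staining for Cre guided where tissue was cut from AAV-Cre brains, controls were cut at corresponding places, and cells were not sorted. The weight label of the AAV-Cre mice was obese for 3 and non-obese for 3, but the sample titles give the opposite assignment, and the subsets are named here by the weight label. The comparisons asked which channel genes differed between each AAV-Cre subset and AAV-GFP, between all AAV-Cre mice and AAV-GFP, and between the subsets.

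Ion channels set the membrane potential and firing of neurons. Sodium channels start the action potential, voltage-gated potassium channels end it, calcium channels couple it to transmitter release and gene expression, and HCN channels carry an inward current at negative potentials that supports pacing. Inward rectifier (Kir) and tandem-pore (K2P) potassium channels hold the resting potential, and in astrocytes Kir channels clear potassium from the extracellular space. In hypothalamic neurons of energy balance, potassium channels are known targets of leptin, insulin and glucose signals.

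Most pore-forming potassium and HCN channel genes of this group are tied together by sequence as well as by name. In most potassium channel families and in HCN channels the selectivity filter is built around the residues glycine, tyrosine and glycine. The coding stretch around these codons is shown for 7 genes that are named in the results, a pair each of voltage-gated and K2P channels and 1 each of Kir, calcium-activated and HCN channels, to show what the pore families share and where they differ. Each stretch runs 5′ to 3′ on the coding strand, and the capitals mark the motif GGNTANGGN in frame, whose 3 codons read glycine, tyrosine and glycine.
Kcnd2: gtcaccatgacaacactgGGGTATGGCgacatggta
Kcnc1: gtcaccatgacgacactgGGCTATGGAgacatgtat
Kcnj10: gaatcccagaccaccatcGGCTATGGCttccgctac
Kcnk1: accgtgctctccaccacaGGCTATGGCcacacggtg
Kcnk3: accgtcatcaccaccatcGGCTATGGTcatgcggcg
Kcnma1: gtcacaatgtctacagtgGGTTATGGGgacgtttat
Hcn3: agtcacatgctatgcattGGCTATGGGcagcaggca
The stretches come from GENCODE M21 transcripts on GRCm38. Each of 4 lies within a single coding exon, Kcnc1 at chr7:46427961-46427996 and Kcnj10 at chr1:172369290-172369325 on the plus strand, and Kcnma1 at chr14:23528404-23528439 and Hcn3 at chr3:89150997-89151032 on the minus strand. Those of Kcnd2 on chromosome 6, Kcnk1 on chromosome 8 and Kcnk3 on chromosome 5 join 2 coding exons. In the longest coding sequence of each gene, the motif was present in 25 of 31 voltage-gated alpha subunits, 8 of 8 Kir, 5 of 8 K2P, 5 of 7 calcium- or sodium-activated and 4 of 4 HCN genes, and in 0 of 7 sodium and 0 of 8 calcium pore-forming subunits. A match need not be the filter, since that of Kcnh4 begins at base 160 of 3054 coding bases, ahead of the pore, and the other Kcnh genes had none. It was present in 47 of the 97 channel genes with a coding sequence (48.5%) and in 1315 of 21584 genes of the annotation (6.09%).

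Between 3929672 and 5766994 reads per library fell on the listed entries, with a median of 4611358. Signal is the authors' CPM, computed on TMM-scaled library sizes, and 3 reads, taken as the floor of counting error alone, equalled 0.525 to 0.786. Gfp had a signal between 62.7 and 79.0 in AAV-GFP mice and 0 in all AAV-Cre mice. Cre had a signal of 0.249, 0.957 and 0 in AAV-GFP mice, 1330.2, 8557 and 235 in AAV-Cre mice labelled obese 1 to 3, and 4644, 5136 and 7064 in those labelled non-obese. Snord116 itself was not analysed here. Libraries of mice labelled obese 1 and 3 stood apart by interferon and MHC genes, whose mean log2(signal + 1) over 11 genes was 8.48 and 8.30, against 4.02 in the mouse labelled obese 2, 3.04 to 4.13 in AAV-GFP mice and 2.86 to 3.36 in mice labelled non-obese. Neuron markers were detected in all libraries at differing levels, with Snap25 between 590.1 and 1147 and Slc32a1 between 25.9 and 66.4. Nr5a1, a marker of the ventromedial nucleus, was at 0 in AAV-GFP 3, labelled obese 1 and 3 and labelled non-obese 3 and between 15.2 and 46.1 in the other libraries. This marker thus differed between mice of the same group, and whether the captured area did was not tested.

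In AAV-GFP mice the channel genes held 0.599%, 0.626% and 0.616% of the reads. To rank genes of different length, the signal was divided by the length of the merged exons in kb. On this scale the 98 genes spanned a 70.4-fold range, from 39.3 ± 6.53 for Kcnj10 to 0.558 ± 0.870 for Kcnn4 (SD, n = 3), with a median of 5.91. The 10 highest genes held 31.6% of the summed level. Potassium channel genes accounted for 47.2% ± 0.444 of the sum, calcium for 30.1% ± 0.350, sodium for 19.3% ± 0.192 and HCN for 3.35% ± 0.300 (SD, n = 3), although the typical potassium gene was lower, with a median of 4.19 against 10.2 for sodium, 9.95 for calcium and 4.62 for HCN genes. The sodium values include Scnm1, which held 1.25% of the sum and whose level was itself the sodium median. The order was coarse. For 96 of 97 pairs of neighbours in the order, the ranges of the 3 libraries overlapped, and only Scn2b against Scn2a did not. Ranks also depended on the length used. Per kb of the longest transcript, Cacna1e ranked 5 and Cacna1b 12 among the 98 genes, against 12 and 6 per kb of merged exons, and Cacna2d3 ranked 14 against 33.

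**Figure D1:**
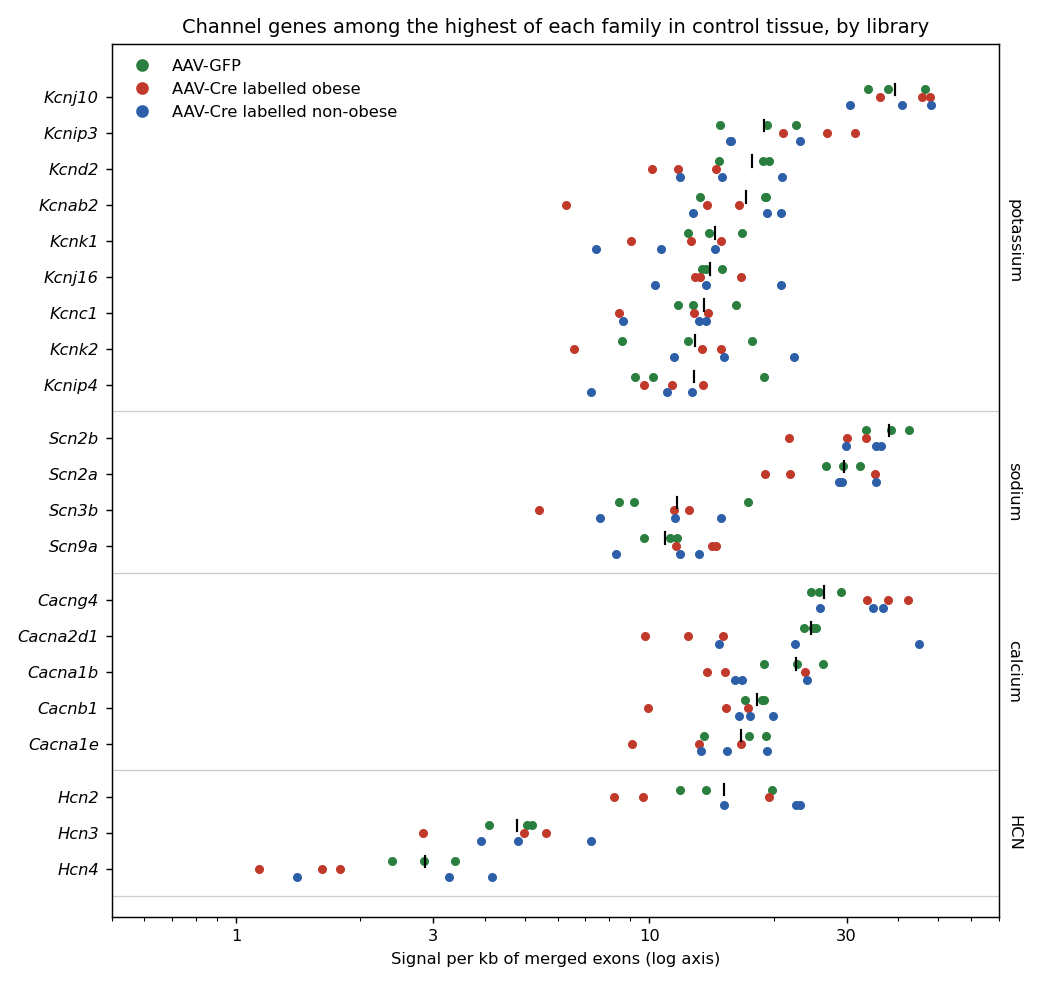
Signal per kb of merged exons (log axis) of channel genes among the highest of each family in control tissue, 1 point per library coloured by group, with a bar at the AAV-GFP mean. Kcnj10 (39.3) and Scn2b (38.1) lead, the AAV-GFP means of Hcn3 and Hcn4 lie below 5, and the mice labelled obese lie left of the controls for Cacna2d1 and Kcnd2.

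The leading potassium channel gene was Kcnj10, which codes for the Kir4.1 channel of astrocytes. Its signal was 182, 204 and 251 in AAV-GFP mice, and its partner Kcnj16 (Kir5.1) stood at 14.0 ± 0.834 per kb. Next came Kcnip3, an auxiliary calcium-binding subunit of Kv4 channels, at 18.9 ± 3.91 per kb, and Kcnd2, the Kv4.2 pore subunit of the A-type current, at 17.7 ± 2.55 per kb. Kcnab2, the beta subunit of Kv1 channels, reached 17.2 ± 3.36 per kb, although 125 of its exon bases are shared with another gene on the same strand. Also among the highest 10 were Kcnk1 (TWIK-1) at 14.4 ± 2.18, Kcnc1 (Kv3.1, which allows fast firing) at 13.5 ± 2.32, Kcnk2 (TREK-1) at 12.9 ± 4.61 and Kcnip4 at 12.8 ± 5.32 per kb. Kcnq3, a subunit of the M current, was lower, at 2.35 ± 0.329 per kb. Among G protein-gated channels, the targets of many inhibitory peptide and transmitter receptors, Kcnj3 had 12.5 ± 1.68, Kcnj9 7.76 ± 2.68 and Kcnj6 4.80 ± 0.712 per kb. Of the Kv1 genes, Kcna1 was at 8.28 ± 2.49 and Kcna2 at 3.54 ± 0.310 per kb.

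Calcium-activated potassium channels were below the median of the 98 genes (5.91 per kb) in control tissue. Kcnma1 (BK) was at 4.96 ± 0.960, above the potassium median of 4.19. Kcnn3 was at 3.86 ± 0.612, Kcnn2 at 3.46 ± 0.966 and Kcnn1 at 0.785 ± 0.377 per kb. The sodium-activated Kcnt1 (Slack) was the highest of this subgroup, at 8.95 ± 0.924 per kb. The 3 lowest channel genes of all were Kcng3, a silent subunit that modifies other channels, Kcnn1 and Kcnn4. Kcnn4 codes for the intermediate-conductance channel known from immune and blood cells, and its 102 reads over the 9 libraries were the fewest of any channel gene. Other potassium channels known from immune cells were above it, with Kcna3, the Kv1.3 channel of T cells and microglia, at 8.82 ± 1.50 and Kcnk13, the THIK-1 channel of microglia, at 4.25 ± 1.07 per kb. Of 882 values of a channel gene in a library, 12 were at 0, in 5 genes, and 87 of the 98 genes had more than 3 reads in every library.

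Sodium channel genes were led by the auxiliary subunit Scn2b at 38.1 ± 4.46 per kb, then by Scn2a (Nav1.2) at 29.5 ± 2.82 per kb. The other axonal alpha subunits were lower than Scn2a, with Scn1a at 9.74 ± 0.814 and Scn8a (Nav1.6) at 9.56 ± 0.586 per kb. Scn9a (Nav1.7), best known from pain-sensing neurons, stood at 10.9 ± 1.05 and Scn3a, best known from the developing brain, at 10.1 ± 1.67 per kb. The auxiliary Scn3b varied more between controls, at 11.7 ± 4.92 per kb. Scn7a, the sodium sensor Nax, was the lowest sodium gene at 1.56 ± 0.412 per kb.

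Among calcium channel genes the highest was Cacng4, a gamma subunit that also accompanies AMPA receptors, at 26.4 ± 2.33 per kb. It was followed by Cacna2d1, the alpha2delta subunit that binds gabapentin, at 24.6 ± 0.861 per kb. Among pore subunits the presynaptic ones were highest, with Cacna1b (N-type) at 22.7 ± 3.74, Cacna1e (R-type) at 16.7 ± 2.84 and Cacna1a (P/Q-type) at 16.0 ± 3.94 per kb. Below them were the T-type genes Cacna1g at 9.95 ± 2.37, Cacna1i at 7.25 ± 0.658 and Cacna1h at 7.20 ± 1.39 and the L-type genes Cacna1d at 6.08 ± 0.396 and Cacna1c at 3.10 ± 0.172 per kb. Cacnb1 led the beta subunits at 18.2 ± 1.08 per kb.

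Hcn2 was the highest HCN gene, with 15.1 ± 4.13 per kb, against 4.78 ± 0.608 for Hcn3 and 2.87 ± 0.501 for Hcn4. In signal without division by length, the 3 controls had 37.9, 43.9 and 63.1 of Hcn2.

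In AAV-Cre mice labelled obese, most channel genes had lower values than in AAV-GFP mice, but none passed the test. Of the 98 genes, 0 had an FDR under 0.1 in the limma fit, against 0.555% of all genes tested. On the recovered reads, DESeq2 and both edgeR tests (quasi-likelihood and likelihood ratio) also called 0. An unadjusted p under 0.05 was found for 11 channel genes, 2 higher and 9 lower, or 11.2%, close to the 9.88% of all genes. The log2 FC was below 0 for 74 of the 98 genes, with a median of -0.31, while it was below 0 for 53.0% of all genes tested, whose median was -0.04. In 15 channel genes all 3 mice labelled obese lay below all 3 controls (15.3%, against 7.27% of all genes), and in 2 all 3 lay above (2.04%, against 7.18%). The share of reads on channel genes was 0.499%, 0.560% and 0.473% in mice labelled obese 1 to 3, below every control, but it was also below every control in mice labelled non-obese 1 and 3, at 0.573% and 0.562%, and was 0.629% in mouse 2. Log2 FCs here are on the log2(signal + 1) scale, which understates the change of low genes, and in bulk tissue fewer cells of a type and less RNA per cell cannot be told apart.

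Among voltage-gated potassium alpha subunits, 29 of 31 had a log2 FC below 0, with a median of -0.44. The 4 beta subunits of calcium channels (median -0.46), the 3 of sodium channels (median -0.37) and the 4 HCN genes (median -0.36) were all below 0. Kir genes were split, 4 above and 4 below 0, and the calcium- or sodium-activated group had 4 of 7 above 0 and a median of 0.28. By family the medians were -0.31 for potassium, -0.27 for sodium and -0.31 for calcium channel genes. These are counts and medians over genes of the same libraries, and no difference between subgroups was tested.

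**Figure D2:**
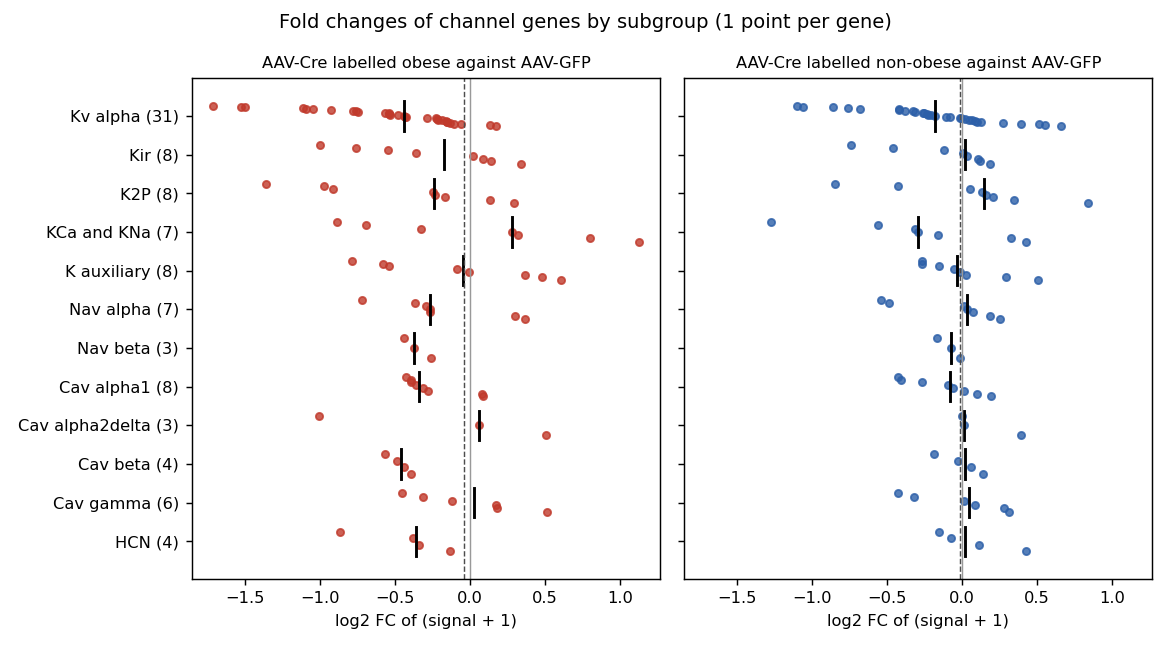
Log2 FC of (signal + 1) for each channel gene by subgroup, in AAV-Cre mice labelled obese (left) and labelled non-obese (right) against AAV-GFP. Each point is a gene, the number of genes is in parentheses, bars are medians and the dashed line is the median of all 13506 genes tested; voltage-gated potassium alpha subunits have a median of -0.44 on the left and -0.18 on the right.

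Among voltage-gated potassium channels, Kcna1, the Kv1.1 subunit that limits repetitive firing, had a signal of 50.6, 41.2 and 27.0 in AAV-GFP mice and 25.0, 9.08 and 9.29 in mice labelled obese (log2 FC -1.50 ± 0.43 SE, FDR = 0.175). The groups did not overlap, though mouse 1 of those labelled obese lay close to the lowest control. Kcnq3, the Kv7.3 subunit of the M current, had 40.1, 32.4 and 31.3 in controls and 8.77, 15.2 and 10.7 in mice labelled obese (log2 FC -1.53 ± 0.48 SE, FDR = 0.221), so every mouse labelled obese had less than the lowest control.

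Of the Kv4 genes, which carry the A-type current, Kcnd3 had 86.3, 71.6 and 96.1 in controls and 40.5, 65.8 and 44.8 in mice labelled obese (log2 FC -0.76 ± 0.26 SE, FDR = 0.276). Kcnd2 had 97.0, 100.3 and 76.1 against 60.5, 74.7 and 52.3 (log2 FC -0.54 ± 0.26 SE, FDR = 0.488). Neither overlapped between the groups, while Kcnd1, at 25.2, 10.3 and 16.1 against 13.9, 7.04 and 12.8, did. Kcna2, which forms channels with Kcna1, had 43.9, 37.9 and 44.7 against 31.0, 35.2 and 21.8 without overlap (log2 FC -0.53, FDR = 0.633). The fast Kcnc1 overlapped, with a log2 FC of -0.23. Kcnf1 and Kcnh1 lay outside the rule for named genes and were picked after their values were seen. Kcnf1, a silent subunit, had 32.2, 33.7 and 32.6 against 16.0, 20.9 and 19.7 without overlap (log2 FC -0.78 ± 0.36 SE, FDR = 0.465), and Kcnh1, the Eag1 channel, had 27.2, 32.7 and 26.8 against values from 5.81 to 28.3 with overlap (log2 FC -1.11 ± 0.48 SE, FDR = 0.423).

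**Figure D3:**
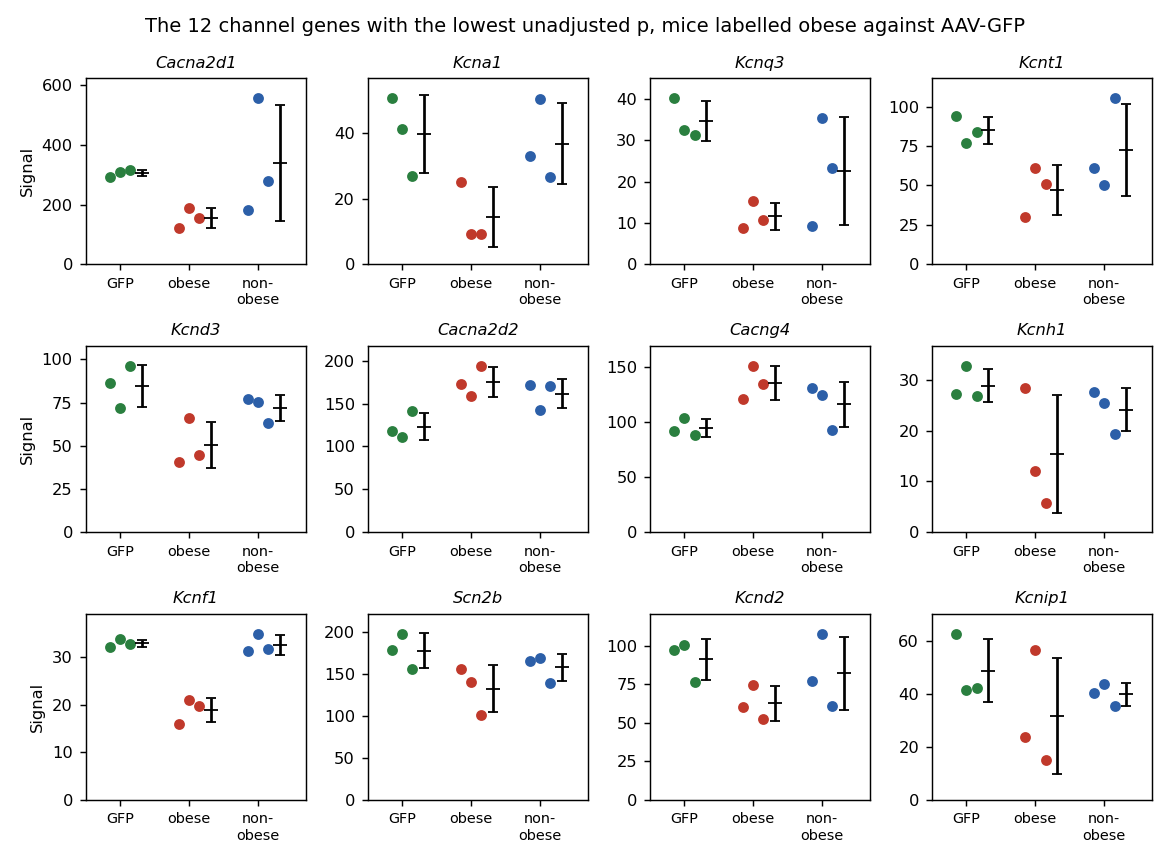
Signal of the 12 channel genes with the lowest unadjusted p for mice labelled obese against AAV-GFP, 1 point per mouse, with the mean and SD (n = 3) of each group beside the points. None of the 12 had an FDR under 0.1 in that comparison, and Cacna2d2 and Cacng4 are the 2 with higher values in mice labelled obese.

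The sodium-activated Kcnt1 had 94.2, 76.8 and 83.9 in controls and 29.9, 61.0 and 50.9 in mice labelled obese without overlap (log2 FC -0.89 ± 0.30 SE, FDR = 0.271). Among small-conductance calcium-activated channels, Kcnn3 had 34.2, 46.9 and 39.8 against 29.5, 33.6 and 14.4 without overlap (log2 FC -0.69, FDR = 0.557), and Kcnn1 pointed the other way, with 1.75, 5.17 and 3.88 against 17.3, 2.04 and 14.4 (log2 FC 1.13 ± 0.81 SE, FDR = 0.686). The high values of Kcnn1 were those of mice labelled obese 1 and 3, and with only mouse 2 in the group its log2 FC was -0.52. Kcnip3 was higher in mice labelled obese, at 95.4, 111 and 74.6 against 52.6, 80.2 and 68.2, with overlap (log2 FC 0.48 ± 0.26 SE, FDR = 0.558). Kcnj10 and Kcnj16, the astrocyte pair, overlapped, with log2 FCs of 0.14 and 0.02. Of the G protein-gated genes, Kcnj9 had 26.4, 46.5 and 26.8 against 20.2, 15.4 and 20.4 without overlap (log2 FC -0.76, FDR = 0.515), and Kcnj3 and Kcnj6 overlapped (log2 FC -0.36 and 0.09). The K2P genes Kcnk2, Kcnk3 and Kcnk9 overlapped, with log2 FCs of -0.17, 0.29 and -0.91, and for Kcnk9 the mice labelled obese ranged from 1.57 to 23.8. Kcna3, Kcnk13 and Kcnn4, known from immune cells, also overlapped, and their log2 FCs were 0.14, -0.97 and 0.80.

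Among calcium channel genes, Cacna2d1 (GRCm38 chr5:15934691-16374511, plus strand) had the lowest FDR of all channel genes in this comparison. Its signal was 294, 308 and 315 in AAV-GFP mice and 121, 187 and 154 in mice labelled obese, so that every mouse labelled obese lay below the tightly grouped controls (log2 FC -1.01 ± 0.26 SE, FDR = 0.105). The FDR fell under 0.1 with a pseudocount of 5 (0.0719), with only these groups in the fit (0.0298) and with libraries centred on their median (0.0995), and was 0.225 with the edgeR quasi-likelihood test. Cacna2d2, a relative of Cacna2d1, was on the other side, at 117, 111 and 141 in controls and 173, 159 and 194 in mice labelled obese (log2 FC 0.51 ± 0.19 SE, FDR = 0.344). Cacng4 was likewise higher without overlap, at 91.8, 104 and 87.8 against 120.4, 151 and 135 (log2 FC 0.51 ± 0.21 SE, FDR = 0.403). Of the pore subunits, Cacna1i alone did not overlap, at 75.0, 64.0 and 75.4 against 49.3, 57.9 and 59.5 (log2 FC -0.36, FDR = 0.689), and 6 of 8 had a log2 FC below 0. The L-type genes Cacna1c and Cacna1d were at 36.7, 90.8 and 47.2 and 49.7, 87.1 and 53.4 in mice labelled obese 1 to 3, in each case with mouse 2 above every control and mice 1 and 3 below.

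The sodium channel subunit Scn2b had 179, 197 and 156 in controls and 155, 140.0 and 101 in mice labelled obese, just without overlap (log2 FC -0.44 ± 0.20 SE, FDR = 0.466). The alpha subunits all overlapped. Scn2a had 341, 412 and 375 against 243, 447 and 278 (log2 FC -0.27), Scn1a had 114, 113 and 98.1 against 83.0, 114 and 72.5 (log2 FC -0.29) and Scn8a had 159, 152 and 141 against 111, 167 and 85.5 (log2 FC -0.37). In each of these 3 genes mouse 2 of those labelled obese was above all controls and mice 1 and 3 were below them. Scn9a and Scn7a had log2 FCs above 0, at 0.30 and 0.37, with an FDR of 0.667 and 0.890. Hcn4, which sets pacing in the heart and thalamus, had 20.7, 17.4 and 14.6 against 9.90, 10.9 and 6.97 without overlap (log2 FC -0.86, FDR = 0.619), while Hcn2 and Hcn3 overlapped, with log2 FCs of -0.34 and -0.13.

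The mice labelled obese did not contribute equally to these values. Over the 98 genes the median log2 difference from the AAV-GFP mean was -0.32 in mouse 1, -0.09 in mouse 2 and -0.47 in mouse 3, and for voltage-gated potassium alpha subunits it was -0.43, -0.25 and -0.74. In AAV-GFP mice, from whose own mean the difference is taken, the median over the 98 genes was 0.03, -0.01 and -0.01 and in mice labelled non-obese -0.05, 0.01 and -0.04. The libraries of mice 1 and 3 were those with high interferon and MHC genes, of which 8 of 11 were called higher in mice labelled obese, and those with less Cre and no Nr5a1. The 10 neuron markers had a median difference of -0.19, 0.05 and -0.27 in mice labelled obese 1 to 3, and 1 of them, Eno2, was called lower. They did not move together. In mice labelled obese the log2 FC was below 0 for 6, with -0.92 for Slc17a6, and above 0 for 4, with 0.40 for Gad1 and 0.46 for Slc32a1. Of 8 markers each, 2 were called higher for microglia, whose summed signal was 158 to 815 against 120.2 to 177 in controls, and 2 for astrocytes, at 2663 to 3311 against 2259 to 2730.1. Of 3 B and plasma cell markers tested, 2 were called higher. Oligodendrocyte markers gave 0 calls of 8, with a median log2 FC of -0.59 and 5 lower at an unadjusted p under 0.05. Markers of oligodendrocyte precursors, endothelium and pericytes, and tanycytes also gave 0 calls in limma, of 3, 7 and 2 tested. In each of these lists 1 had an unadjusted p under 0.05. T cell markers gave 0 calls of 3 tested, with 2 at an unadjusted p under 0.05. The summed signal of 5 T cell markers, some of them filtered out of the test, was 91.8, 12.7 and 63.9 in mice labelled obese 1 to 3. In controls it was 2.99 to 5.36. With mouse 2 as the only mouse labelled obese, 53 of the 98 channel genes were below 0 with a median log2 FC of -0.09, and 21 of 31 voltage-gated potassium alpha subunits with a median of -0.25. The part of immune cells, of the captured area and of Cre level in the lower channel values was not tested.

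**Figure D4:**
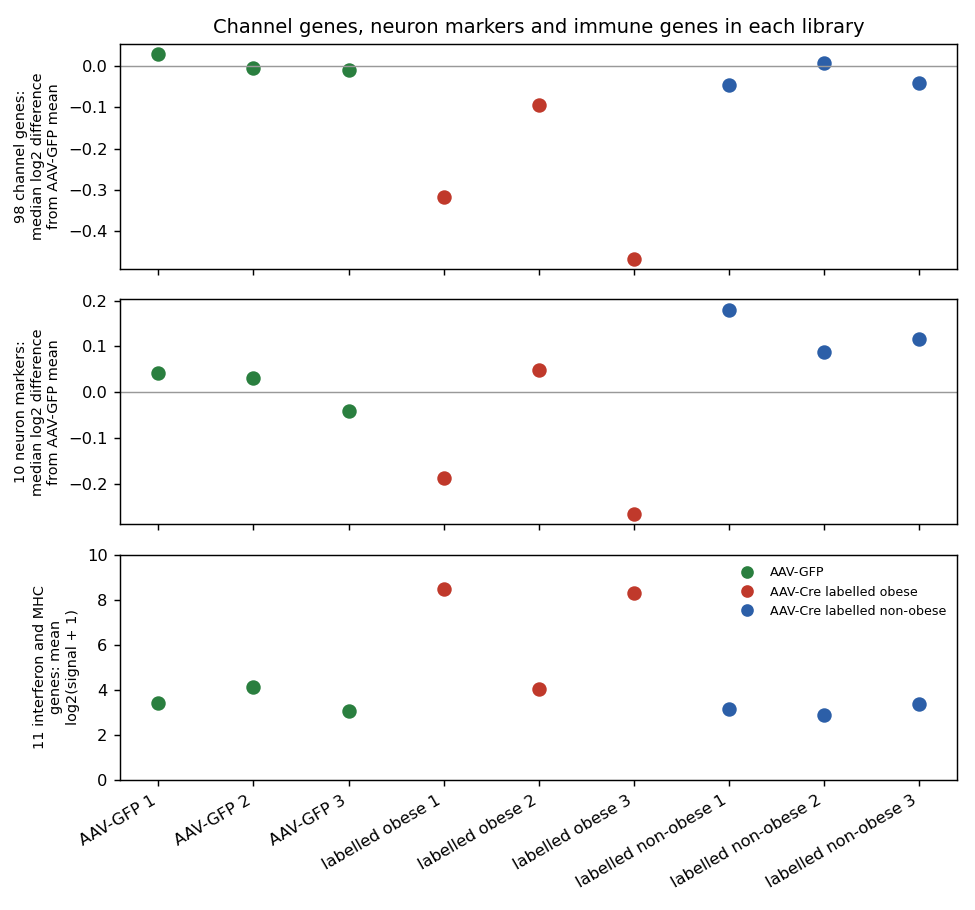
For each of the 9 libraries, the median log2 difference of the 98 channel genes from the AAV-GFP mean (top), the same for 10 neuron markers (middle) and the mean log2(signal + 1) of 11 interferon and MHC genes (bottom). Mice labelled obese 1 and 3 are lowest in channel genes (-0.32 and -0.47) and neuron markers and highest in immune genes (8.48 and 8.30).

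In AAV-Cre mice labelled non-obese, channel genes were spread around 0. Of the 98 genes, 0 had an FDR under 0.1 (0.0148% of all genes tested did) in the limma fit, and 1 had an unadjusted p under 0.05 (2.27% of all genes), while the other tools also called 0. The log2 FC was below 0 for 52 of 98 genes, with a median of -0.01. Cacna2d2 was the gene with the unadjusted p under 0.05, at 172, 142 and 171, above all controls (log2 FC 0.39 ± 0.19 SE, FDR = 0.999). Kcnj3, Kcnn3 and Cacna1i were below all controls, at 54.9, 48.5 and 38.6 for Kcnj3, 23.8, 26.2 and 30.7 for Kcnn3 and 61.1, 43.7 and 57.0 for Cacna1i, with an FDR of 0.999 for each of them. No overlap was found on the lower side for 3.06% of channel genes and 5.15% of all genes, and on the higher side for 1.02% and 4.57%. Cacna1h, a T-type subunit, had a log2 FC of -0.43, Kcnd1 of -1.06 and Kcnq3 of -0.76, and on the higher side Hcn2 had 0.43, Kcnk3 (TASK-1) 0.84 and Cacng4 0.28, each with overlap and none past the test. Kcnn4 was at 0 in all 3 mice labelled non-obese, where 3 reads are a signal between 0.525 and 0.786, against 7.98, 0 and 0.583 in controls.

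With all AAV-Cre mice taken as the average of both subsets, 0 of 98 channel genes had an FDR under 0.1 (0.0444% of all genes did) and 7 had an unadjusted p under 0.05 (4.31% of all genes), 5 of them lower. The lower were Kcnq3 (log2 FC -1.14), Kcnt1 (-0.59), Cacna2d1 (-0.50), Kcnd3 (-0.49) and Kcna1 (-0.80), and the higher were Cacna2d2 (0.45) and Cacng4 (0.40). All had an FDR of 0.991. Kcnip3, Kcnk3 and Kcnn1 followed on the higher side, at 0.21, 0.57 and 0.77, also not past the test. Cacna2d2 was higher in 6 of 6 AAV-Cre mice than in every control. Cacna1i and Kcnn3 were lower in 6 of 6, with log2 FCs of -0.38 and -0.63. Such separation was seen on the higher side in 1.02% of channel genes and 0.933% of all genes, and on the lower side in 2.04% and 1.08%. The comparisons with AAV-GFP share the 3 control mice, so they do not repeat each other.

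Between the AAV-Cre subsets, Cacna2d1 was the only channel gene that passed the limma test. It was higher in mice labelled non-obese, with a signal of 183, 557 and 280.0, than in those labelled obese, with 121, 187 and 154 (log2 FC 1.01 ± 0.26 SE, FDR = 0.0840). The subsets overlapped, and the value of 557 of mouse 2 labelled non-obese was above every other library. Without that mouse the log2 FC was 0.58 with an FDR of 0.408, and the FDR was 0.108 with the edgeR quasi-likelihood test and 0.165 with DESeq2. Calls at an FDR under 0.1 were made for 0.948% of all genes in this comparison. An unadjusted p under 0.05 was found for 11 channel genes, all higher in mice labelled non-obese (11.2%, against 11.4% of all genes in either direction). The log2 FC was above 0 for 69 of 98 genes with a median of 0.26, against 0.02 for all genes, and with mouse 2 as the only mouse labelled obese the median over channel genes was 0.04.

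In 7 channel genes every mouse labelled non-obese lay above every mouse labelled obese (7.14%, close to the 6.61% of all genes). All 7 were of the potassium family, which holds 62 of the 98 genes. Kcna1 had 33.1, 50.5 and 26.7 in mice labelled non-obese (log2 FC 1.39 ± 0.43 SE, FDR = 0.170) and Kcnj9 had 27.5, 40.3 and 37.6 (log2 FC 0.87 ± 0.38 SE, FDR = 0.372). Among the others, Kcna4, Kcnc4, Kcnf1 and Kcnj2 lay outside the rule for named genes. Hcn2 (log2 FC 0.77, FDR = 0.371), Scn8a (0.55, FDR = 0.372) and Scn1a (0.54, FDR = 0.383) had an unadjusted p under 0.05 with overlap. Of the genes lower in mice labelled non-obese, Kcnn4 was at 0 in all 3 against 7.87, 0 and 7.43 in mice labelled obese, a mean at least 7.85-fold lower at the floor of 3 reads per library (FDR = 0.487), and the 2 mice labelled obese with reads of it were those with high interferon and MHC genes, while its highest value, 7.98, was that of AAV-GFP 1, where these genes had a mean log2(signal + 1) of 3.43. Kcnip3, Cacna1h, Kcnn2 and Scn9a followed, with log2 FCs of -0.53, -0.51, -0.64 and -0.29, none past the test.

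Channels work with auxiliary, anchoring, scaffold and regulatory proteins that lack the gene prefixes, and the leak channel Nalcn, itself a pore-forming channel, lacks them too. Such genes were listed by 48 symbols, with Nalf1 and Nalf2 also under their older names Fam155a and Fam155b. Of these symbols 44 were tested, and 0 had an FDR under 0.1 in any of the 4 comparisons in the limma fit. In mice labelled obese, 35 of 44 had a log2 FC below 0, with a median of -0.30, and 10 (22.7%, against 9.88% of all genes) had an unadjusted p under 0.05, all lower. Among them, Nalcn, the sodium leak channel, had 172, 172 and 190.1 in controls and 112, 123 and 135 in mice labelled obese (log2 FC -0.53, FDR = 0.285). Dpp10, an auxiliary subunit of Kv4 channels, had 100, 131 and 83.5 against 39.6, 89.4 and 44.4 (log2 FC -0.92, FDR = 0.266), whereas its relative Dpp6 had 382, 371 and 418 against 355, 413 and 299 (log2 FC -0.15, FDR = 0.816). Cnih3, an AMPA receptor partner like Cacng4, had 19.4, 21.6 and 13.6 against 1.57, 5.22 and 5.81 (log2 FC -1.98, FDR = 0.237). The axon initial segment scaffold Ank3 overlapped between the groups, with a log2 FC of -0.19. In mice labelled non-obese the median of the 44 genes was 0.00, with 22 above and 22 below 0. Between the subsets, 10 had an unadjusted p under 0.05 with higher values in mice labelled non-obese and 1, Fgf11, with lower values, together 25.0% against 11.4% of all genes. The list was chosen with earlier results of these data known, so these shares describe it and are not independent evidence.

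Spread within groups limits these comparisons. The median coefficient of variation of the 98 channel genes was 19.1% in AAV-GFP mice, 34.5% in those labelled obese and 24.2% in those labelled non-obese, and the mice are separate animals. In 31 channel genes, among them Kcnd3, Kcnn1, Kcnj3, Kcnj9, Cacna2d2 and Scn9a, some exon bases are shared with a gene on the other strand, whose reads cannot be told apart here because the strand setting of the counting is not given in the sources used.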

How the data were processed

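RNA-seq of 9 mice (3 AAV-GFP, 3 AAV-Cre labelled obese, 3 AAV-Cre labelled non-obese) was analyzed from the deposited table. The authors mapped single-end reads of a stranded low-input kit to GRCm38 with TopHat, and the submitters' processing notes also name CASAVA 1.7, TopHat2 2.0.11, HTSeq, edgeR and limma. What the authors deposited is a signal, namely CPM on TMM-scaled library sizes. All values (100%) equalled a whole number of reads within 0.01 reads, so reads were recovered, between 3929672 and 5766994 per library. The comparisons had been planned for CPM, and the same test was used for signal.

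The log2(signal + 1) values of all 3 groups were fitted with limma 3.58.1 (R 4.3.3), with a variance trend and Benjamini-Hochberg adjustment (FDR) over the 13506 entries at or above a signal of 1 in 3 libraries or more, which included all 98 channel genes. A call is an FDR under 0.1. Values are given with SD between mice or SE of the fit. Levels were divided by merged exon length (GENCODE M21), and symbols were matched for 13446 of 13586 Ensembl identifiers. Alternatives used edgeR 4.0.16 and DESeq2 1.42.0 on recovered reads, other pseudocounts, filters and centring, a replicate block and left-out mice. The procedure was tested on simulated data. Named are the highest genes of each family and the lowest genes in controls, the 5 higher and 5 lower genes with the lowest p in each comparison, and genes with a known role; some of these genes and sequences are not reported here. The genes, lists and rules were chosen with earlier results of these data known.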

Additional observations from a re-analysis of the deposited data

Results flagged for a closer look

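The AAV-Cre libraries of channel genes were examined for mice far from the rest of the 6. In 1 of 61 values, which were the signals of 56 genes chosen by the naming rule, the share of reads on channel genes and the family shares, the highest or lowest mouse was set apart, where chance alone gives about 1 in 20 or 3.05. This was the signal of Cacna2d1 in mouse 2 labelled non-obese, at 557, with the next mouse at 280.0, a gap of 0.635 of the range of the 6 mice.

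Cacna2d1 was also the channel gene whose effect differed between the AAV-Cre subsets by the test of that difference, with a log2 FC of 1.01 for mice labelled non-obese against mice labelled obese. Both results rest in part on the same mouse, and without it the log2 FC was 0.58 (FDR = 0.408 in limma).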

How the results depend on the processing

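In mice labelled obese against AAV-GFP, the number of channel genes called went from 0 to 1, Cacna2d1, with a pseudocount of 5. It was also 1, the same gene, with only the compared groups in the fit and with libraries centred on their median. These settings called 143, 50 and 72 of the 13506 genes tested. When single mice were left out, the number of channel genes called ranged from 0 to 8. It was 8 of 98 without mouse 2 labelled obese (Cacna1b, Cacna1e, Cacna2d1, Kcnd3, Kcnip1, Kcnq3, Kcnt1 and Scn2a, all lower). That fit called 720 of all 13506 genes, against 75 in the main fit. The single call between the subsets became 0 at an FDR under 0.05, with a pseudocount of 0.1, genes filtered at a signal of 5, the compared groups alone, no variance trend, the edgeR quasi-likelihood test with or without a filter (the latter added after the values were seen) and without both mice labelled obese 1 and 3. It became 2 with the edgeR likelihood ratio test (Cacna2d1 higher and Kcnn4 lower), and DESeq2 called 1, Kcnn4. These 2 tests called 398 and 389 of the 13506 genes tested. The count of channel genes called between the subsets ranged from 0 to 7 when single mice were left out. It was 0 without mouse 1 or 3 labelled obese or 2 or 3 labelled non-obese. Without mouse 2 labelled obese it was 7 of 98, and that fit called 908 of all 13506 genes, against 128 in the main fit. The other comparisons gave 0 calls under every alternative run. Without both mice labelled obese 1 and 3, Kcnn1 reversed, to a log2 FC of -0.52 in mice labelled obese and -0.047 in all AAV-Cre mice, and Kcnn4 was at 0 in both subsets. This fit assumes that the lone mouse varies like the other groups. The cause of these changes was not tested. Of 779 refits of 40 named values, 751 kept direction and side of the threshold, 12 lost a call, 14 gained 1 and 2 reversed. Only 1 of the 40 values, Cacna2d1 between the subsets, was a call in the main fit, so all 12 lost calls were its own. The other values were not calls to begin with, so their staying on the same side says little about stability.

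The replicate number as a block gave 2 channel gene calls in mice labelled obese against AAV-GFP and 2 between the subsets, Cacna2d1 and Kcna1 in each. Over all 13506 genes the block gave 200 and 271 calls in these comparisons. It changed no other count of channel genes called. Mice of the same number are separate animals, and 0 of 9 pairs had a correlation over 0.1 (from -0.0199 to 0.0897). However, 6 of 9 libraries correlated best with their own number. The summed signal of 9 mediobasal hypothalamus markers was lowest in mouse 3 of each group, at 98.5 in AAV-GFP, 77.1 in labelled obese and 140 in labelled non-obese. The numbers were not taken as pairs in the main fit, and whether they track the captured area was not tested. Per kb of the longest transcript the shares were 45.1% for potassium, 19.7% for sodium, 32.4% for calcium and 2.81% for HCN genes, and over all 9 libraries 46.5%, 19.1% and 31.0% for the first 3. Centring on library medians took the median log2 FC of the channel genes from -0.31 to -0.38 in mice labelled obese and from 0.26 to 0.33 between the subsets. Depth limits the lowest genes most, and counting error was not separated from the spread between mice.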
